A study of Mus musculus with 4 samples.

Results

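The genes described here are 7 transcription factor genes that mark territories of the embryonic jaw and mouth, namely the zinc-finger genes Osr1 and Osr2, the homeobox genes Gsc, Barx1 and Pitx1, and the LIM homeobox genes Lhx6 and Lhx8. They were chosen by the gene name printed for each non-control probe in the scanner files. This gave 10 probes of 56601 and 7 genes of 26695. Each gene was described by its brightest probe, which was well above background in all 4 tissues for all 7, and the other probes of Osr2, Lhx6 and Lhx8 are given beside it.

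RNA came from embryos of ICR mice, an outbred stock, and the labels name no allele and no agent. Tissue was dissected and pooled, and each pool was hybridised to 1 single-colour Agilent array. At E11.5, tissue from 4 embryos was pooled for the lateral lingual swellings (LLS), and tissue from 4 embryos for the lateral part of the mandibular arch (LMA). The labels give the region of the LLS sample as medial and that of LMA as lateral. The latest tissue was the median tongue of 4 embryos at E14.5 (T), and the earliest the median mandibular arch of 12 embryos at E9.5 (MMA). The lingual swellings are the outgrowths of the arch that build most of the front of the tongue.

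In the first pharyngeal arch, oral epithelium releases FGF8 and BMP4, and the neural crest mesenchyme below turns on homeobox genes according to which signal it receives. In mouse, Lhx6, Lhx8 and Barx1 are known as genes that FGF8 turns on near the mouth and the molar field, and Gsc as a gene of the lower-jaw programme that depends on endothelin-1. Pitx1 marks oral epithelium and mandibular mesenchyme, and the odd-skipped genes Osr1 and Osr2 are known from the tongue, palate and tooth-forming mesenchyme.

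Signals are the processed Cy3 intensities of the scanner files, with ± giving the error that Feature Extraction assigns to a spot. There were no replicates, so this error does not hold the spread between pools, precision is limited by the array number, and no test between tissues could be made. For comparisons each signal was divided by the 75th percentile of its array, and differences are log2 values of the first tissue minus the second, where 1 is 2-fold. Feature Extraction put the error of a member's difference at about 0.20, and at 0.32 for Osr1 in LLS minus MMA, where 1 spot was dim, because it allows every bright spot a fixed error of 10%. By contrast, 291 probes printed 10 times gave an SD of 0.081 to 0.083 for a single-spot difference. Neighbouring tissues in the order of a gene were called distinct where their difference passed 1.96 times the Feature Extraction error.

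The arrays had 57% to 62.9% of non-control spots well above background and 0 saturated ones. Markers of mesenchyme and epithelium were found in every tissue, in different amounts. The summed scaled signal of 7 epithelial markers, for MMA, LLS, LMA and T, was 134.5, 62.3, 22.1 and 417.4, and all 7 were well above background on every array. These markers did not move together. Krt8 and Krt18 were at least 2-fold lower in LLS and in T than in MMA, and Cdh1 and Krt5 higher. The largest signal in the sum was Krt18 in MMA (89.1) and Krt14 in T (177.0). For 7 skeletal muscle markers the sum was 1.12, 8.41, 25.4 and 410.2 in the same order, with Myod1, Myog and Ttn not well above background in MMA. For 7 mesenchymal markers it was 68.3, 160.4, 206.0 and 228.0. They did not move together, as Twist1, Pdgfra and Pdgfrb were at least 2-fold lower in T than in LLS and in LMA, and Col1a1 higher. The part of these mixtures in the differences below was not tested, and in bulk tissue fewer cells of a type and less RNA per cell cannot be told apart. The extraction text of the labels names cerebellum. Of 8 cerebellar markers, Gabra6, Car8, Cbln3 and Atoh1 were not well above background on any array, En2 was in MMA and LMA, and Pcp2, Cbln1 and Zic1 were on all 4. The highest were Pcp2, at 583.5 in LLS and 1560.1 in LMA, and Cbln1, at 794.4 in MMA.

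Osr1, one of the odd-skipped zinc-finger factors, had the widest span of the 7 genes. Its only probe lies at chr12:9586475-9586534 (mm9, per the file headers), and its sequence is shown because the whole Osr1 result rests on it.
Osr1 probe: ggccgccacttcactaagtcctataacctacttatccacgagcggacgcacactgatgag
The signal was 30.8 ± 6.13 in the E9.5 MMA, 5146.1 ± 514.6 in LLS, 2390.8 ± 239.1 in LMA and, at E14.5, 648.5 ± 65.2 in T. The order was LLS, LMA, T and MMA, and every neighbour in it was distinct. The MMA spot was well above background but close to the lowest such signal on its array, 22.2. The difference was 7.27 in LLS minus MMA (154.4-fold) and 6.01 in LMA minus MMA (64.5-fold). With normexp background correction, which lifts dim values, these were 5.52 and 4.28, and T minus MMA was 2.61 in place of 4.18. Within E11.5 the gene was 2.39-fold higher in LLS than in LMA (1.26), and T was 8.54-fold lower than LLS (-3.09) and 3.57-fold lower than LMA (-1.84).

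Osr2, its relative known in mouse from palate growth and from restricting tooth formation to a single row, was the gene that separated the lingual swelling most from the lateral arch at the same age. Its brighter probe lies at chr15:35232978-35233037. The signal was 66.5 ± 8.21 in the E9.5 MMA, 1541.9 ± 154.3 in LLS, 176.4 ± 18.1 in LMA and, at E14.5, 1101.4 ± 110.3 in T. LLS and T were both high and LMA and MMA both low, and each neighbour in the order LLS, T, LMA and MMA was distinct. The LLS minus LMA difference was 3.28 (9.72-fold), and T minus LMA was 2.69 (6.45-fold). T minus LLS was -0.59 (1.51-fold lower in T).

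The other Osr2 probe runs from 35230691 to 35231706 on chr15, so its 60 bases are spread over 1016 bases of the genome. It is shown because it reads a separate stretch of the same transcript.
Osr2 split probe: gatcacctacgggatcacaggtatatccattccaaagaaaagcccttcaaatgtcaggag
Its signal was 14.8 ± 5.26 in MMA, where it was not well above background, 145.4 ± 15.3 in LLS, 31.6 ± 5.54 in LMA and, at E14.5, 90.7 ± 11.0 in T. It gave the same order, with LMA and MMA no longer distinct. Its differences were smaller at its lower signals, except in T minus LLS (-0.79 against -0.59 by the brighter probe). LLS minus LMA was 2.35 (5.12-fold), T minus LMA was 1.57, and LLS minus MMA was at least 2.60 by this probe against 4.42 by the brighter one. LMA minus MMA was 1.14 by the brighter probe and at least 0.25 by the split probe. It ended under 2-fold with normexp (0.63), with the mean of probes (0.99) and, just under the limit, with quantile scaling and the deposited table.

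Gsc encodes goosecoid, a homeodomain repressor known from the gastrula organizer and, in mouse, needed for proper lower jaw and ear bones. Its probe lies at chr12:105709426-105709485. The signal was 78.8 ± 9.2 in the E9.5 MMA, 3858.3 ± 385.9 in LLS, 5396.5 ± 539.7 in LMA and, at E14.5, 382.0 ± 38.6 in T. Both E11.5 tissues were high, T was lower and MMA lowest, and LLS and LMA were not distinct (LLS minus LMA -0.33). The differences were 5.50 in LLS minus MMA (45.3-fold) and 5.83 in LMA minus MMA (57.0-fold). T was 10.9-fold lower than LLS (-3.44) and 13.7-fold lower than LMA (-3.77), and stayed 4.17-fold above MMA (2.06). Under normexp the differences from MMA were 4.65 for LLS, 4.99 for LMA and 1.46 for T.

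Barx1, a homeobox factor known in mouse from molar-forming mesenchyme and the stomach wall, was highest in the earliest tissue and lowest in the latest. Its probe lies at chr13:48761442-48761501. The signal was 1821.6 ± 182.2 in the E9.5 MMA, 1625.8 ± 162.6 in LLS, 1198.8 ± 120.0 in LMA and, at E14.5, 310.4 ± 31.5 in T. MMA and LLS were not distinct, LMA was lower than LLS and T was lowest. T was 6.82-fold lower than MMA (-2.77), 5.64-fold lower than LLS (-2.49) and 3.74-fold lower than LMA (-1.90). Of the 7 genes, Barx1 was the only one highest in MMA, and LLS minus LMA was 0.59 (1.51-fold).

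**Figure D1:**
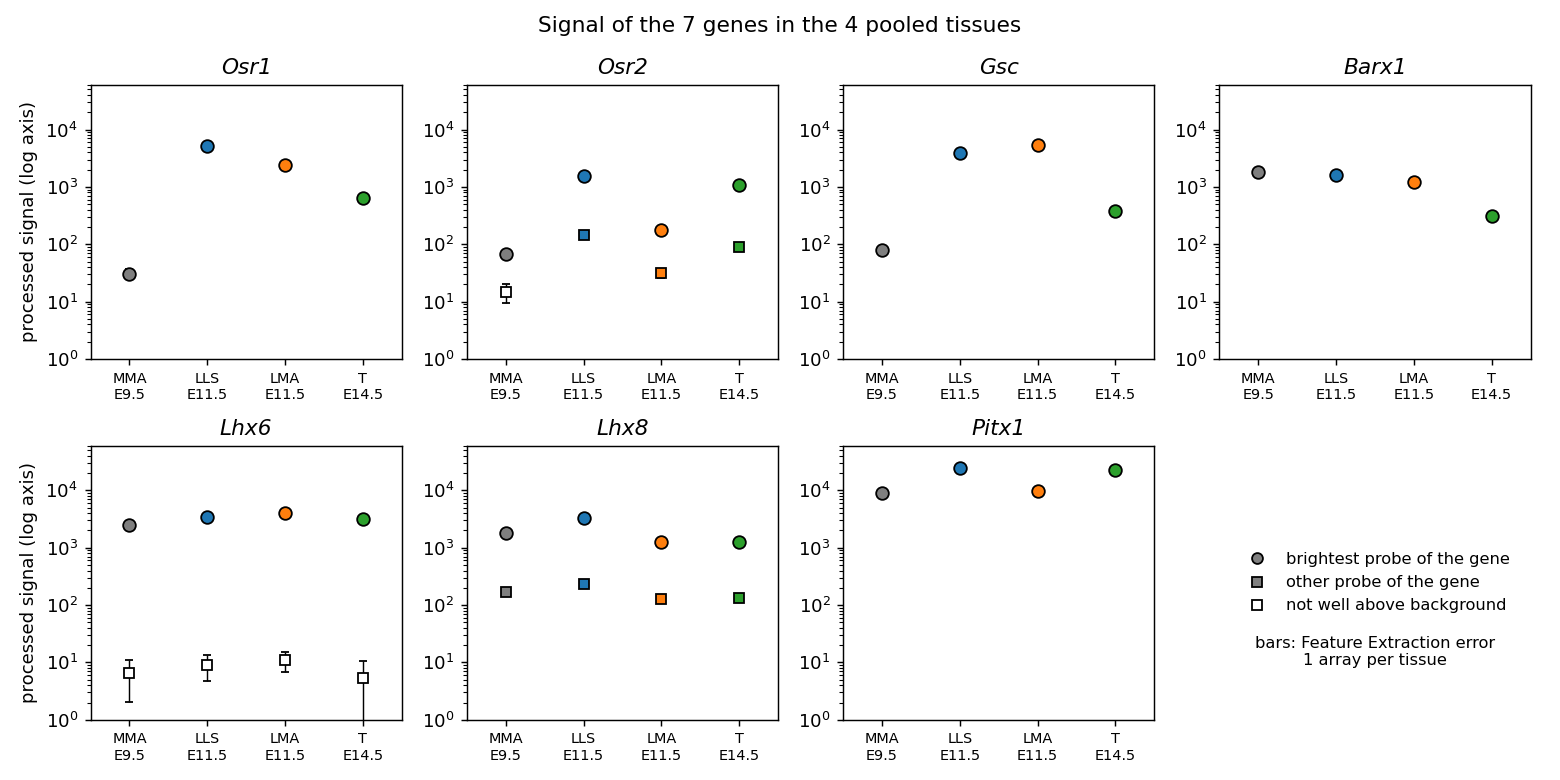
Processed signal (log axis) of the 7 genes in MMA, LLS, LMA and T, 1 array per tissue. Circles are the brightest probe of each gene, squares the other probe where there is one, open squares spots not well above background, and bars the Feature Extraction error, often smaller than the symbol. Osr1 spans 30.8 to 5146.1, while the brighter Lhx6 probe stays between 2455.8 and 3970.4.

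Lhx8, a LIM homeodomain factor needed in mouse for palate closure, was highest in the lingual swelling. Its brighter probe lies at chr3:153969377-153969436. The signal was 1827.7 ± 182.8 in the E9.5 MMA, 3233.5 ± 323.4 in LLS, 1260.2 ± 126.1 in LMA and, at E14.5, 1247.6 ± 124.9 in T. LLS stood above MMA, MMA above T, and T and LMA were not distinct. LLS was 2.85-fold higher than LMA (1.51), and T was 2.79-fold lower than LLS (-1.48). T minus LMA was 0.03.

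The other Lhx8 probe lies at chr3:153974609-153974668, and it is shown as the independent reading of a gene whose differences are near 2-fold.
Lhx8 second probe: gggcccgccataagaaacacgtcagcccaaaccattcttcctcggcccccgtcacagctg
Its signal was 171.2 ± 17.8 in the E9.5 MMA, 231.7 ± 23.6 in LLS, 128.5 ± 13.5 in LMA and, at E14.5, 133.4 in T. The order was the same, with LLS and MMA no longer distinct. LLS minus LMA was 1.0 (2.0-fold) and T minus LLS was -0.90 by this probe.

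Lhx6, the close relative of Lhx8 that is expressed beside it in oral mesenchyme, hardly varied on its brighter probe. The signal was 2455.8 ± 245.6 in the E9.5 MMA, 3467.5 ± 346.8 in LLS, 3970.4 ± 397.1 in LMA and, at E14.5, 3123.0 ± 312.4 in T. No neighbours in the order LMA, LLS, T and MMA were distinct, and the whole span was 0.43 (1.35-fold).

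The sequence of the 2 Lhx6 probes bears on how that flat level can be read. The brighter probe covers chr2:35937644-35937703 on the minus strand and ends in a run of alternating C and A. Its last 30 bases are shown first, with the 29-base run in capitals, and the whole of the other probe, at chr2:35958379-35958438, is shown after it.
Lhx6 brighter probe, last 30 bases: aACACACACACACACACACACACACACACA
Lhx6 second probe: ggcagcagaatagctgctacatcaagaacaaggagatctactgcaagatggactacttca
The second probe gave 6.61 ± 4.56 in the E9.5 MMA, 9.15 ± 4.40 in LLS, 10.9 ± 4.22 in LMA and, at E14.5, 5.33 ± 5.37 in T, and was not well above background on any array. The files name a different transcript for it than for the brighter probe, but list 4 RefSeq transcripts for each of these probes. The probes therefore disagree on whether Lhx6 was measured above background.

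Across the arrays, 32 of 56601 probes held a CA run of at least 20 bases, a class looked at after the Lhx6 values were seen. All 32 were well above background on all 4 arrays, against 50.2% of all probes. Their median signal was 5518.3, against 482.1 for the 28388 probes well above background on all arrays, and their median log2 range over the tissues was 0.32, against 0.77. The Lhx6 probe, with a mean signal of 3254.2 and a range of 0.43, lay within this class, and 22 of the 32 were brighter. Genes that probes of this class are named for include Itgam of white blood cells and Oprm1, the mu opioid receptor, both picked after their values were seen. Whether the run contributes to the Lhx6 signal was not tested. Values of this probe below are given as measured, and no difference of Lhx6 between tissues is read from them.

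**Figure D2:**
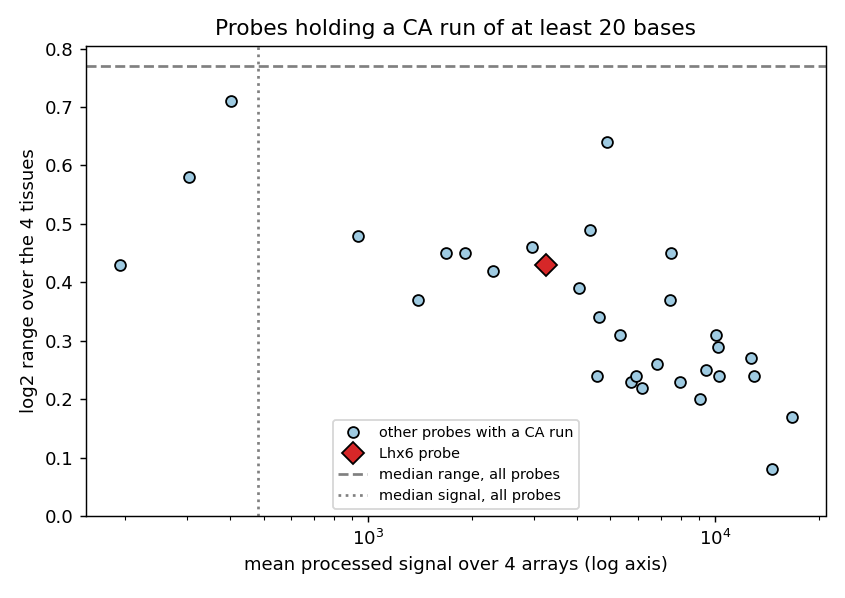
Mean processed signal over the 4 arrays (log axis) against the log2 range over the 4 tissues, for the 32 probes with a CA run of at least 20 bases. The red diamond is the brighter Lhx6 probe, and the dashed and dotted lines are the medians of all probes well above background (0.77 for the range and 482.1 for the signal). All 32 lie below the median range, and Lhx6 lies among them.

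Pitx1, a bicoid-class homeodomain factor known from the hindlimb, the pituitary and the mandible, was bright in all tissues. Its probe lies at chr13:55926417-55926476. The signal was 9000.5 ± 900.1 in the E9.5 MMA, 24796.0 ± 2479.6 in LLS, 9718.0 ± 971.8 in LMA and, at E14.5, 22427.6 ± 2242.8 in T. LLS and T were high and not distinct from each other, and MMA and LMA were low and not distinct. LLS was 2.84-fold higher than LMA (1.5), and T was 2.38-fold higher than LMA (1.25). Of the 7 epithelial markers, 4 were at least 2-fold higher in LLS than in LMA and 6 in T than in LMA. Trp63 passed in neither on its brightest probe (0.23 in LLS minus LMA), but its 3 other probes gave 2.3 to 2.56 in LLS minus LMA. Pitx1 is known from oral epithelium as well as mesenchyme, and the part of the epithelial share in its differences was not tested.

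Set side by side, 6 of the genes gave 3 kinds of pattern over the tissues, with Lhx6 left out for the reason given above. Osr1 and Gsc were low in MMA, high in both E11.5 tissues and lower in T. Osr2, Pitx1 and Lhx8 were higher in LLS than in LMA, and of these only Lhx8 was not high in T. Osr1, grouped with Gsc, was also higher in LLS than in LMA (1.26). Barx1 was lowest in T. These groupings are descriptions of 4 points per gene. By root mean square distance between centred log2 values, the nearest pairs were Lhx6 and Lhx8 (0.63), Lhx6 and Pitx1 (0.66), and Lhx8 and Pitx1 (0.68). Distances from Lhx6 rest on the probe with the CA run, and no likeness to Lhx6 is read from them. Next came Barx1 and Lhx8 (0.81), which the groupings above keep apart, and Osr1 and Gsc (0.94). By this measure genes of narrow range lie near each other whatever their order of tissues. The relatives Osr1 and Osr2 were 1.98 apart, farther than Osr1 was from Gsc.

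**Figure D3:**
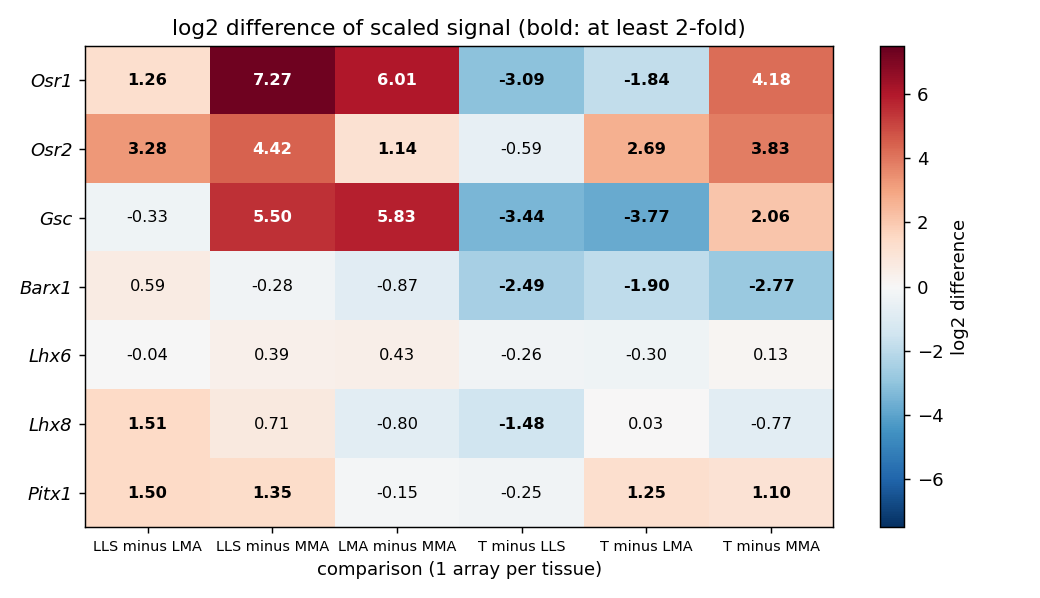
Log2 difference of scaled signal for each gene (lines) and comparison (columns), first tissue minus second, 1 array per tissue. Red is higher and blue lower in the first tissue, and bold values are at least 2-fold. Osr1 in LLS minus MMA is the largest (7.27), and the Lhx6 line stays between -0.30 and 0.43.

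The LLS and LMA comparison asks how the outgrowth that forms the tongue differs from the lateral arch of the same age. Osr1, Osr2, Lhx8 and Pitx1 were higher in LLS by at least 2-fold, and 0 of the 7 were lower. Over all 17487 genes compared, 3.65% were at least 2-fold higher and 2.82% lower. The median of the 7 was 1.26, beside 0.01 for all genes. At a 4-fold limit only Osr2 remained. In the same pair, 4 of 7 epithelial markers were higher in LLS and 5 of 7 endothelial and 6 of 7 muscle markers lower.

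The E11.5 tissues were set against MMA to ask what differs between E9.5 and E11.5, although the tissue dissected differs as well as the age. In LLS minus MMA, Osr1, Osr2, Gsc and Pitx1 were at least 2-fold higher and 0 lower, beside 9.72% of all genes higher and 5.58% lower. Barx1, Lhx6 and Lhx8 had differences of -0.28, 0.39 and 0.71. In LMA minus MMA, Osr1, Osr2 and Gsc were at least 2-fold higher and 0 lower, beside 10.5% of all genes higher and 7.21% lower. Barx1 (-0.87) and Lhx8 (-0.80) were lower in LMA by less than 2-fold. The LLS and LMA comparisons share the MMA array.

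T was set against both E11.5 tissues and MMA, and here too the tissue dissected differs as well as the age. In T minus LLS, Osr1, Gsc, Barx1 and Lhx8 were at least 2-fold lower and 0 higher, beside 6.02% lower and 12.8% higher over all genes. In T minus LMA, Osr2 and Pitx1 were higher and Osr1, Gsc and Barx1 lower, beside 14.2% higher and 7.22% lower. In T minus MMA, Osr1, Osr2, Gsc and Pitx1 were higher and Barx1 lower, beside 18.3% higher and 13.8% lower. These 3 comparisons share the T array. The muscle marker sum was highest in T, and all 7 muscle markers were at least 2-fold higher there than in LLS.

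Around the 7 genes, 5 lists of related and upstream genes held 74 names, all found on the arrays. Beside the list counts stand the shares over all genes at least 2-fold higher and lower. They were 3.65% and 2.82% in LLS minus LMA, 9.72% and 5.58% in LLS minus MMA, and 10.5% and 7.21% in LMA minus MMA. The T comparisons had 12.8% and 6.02% against LLS, 14.2% and 7.22% against LMA, and 18.3% and 13.8% against MMA. In the list of relatives and cofactors, 4 of 19 compared genes were at least 2-fold higher and 3 lower in LLS minus LMA, with a median of -0.30. Barx2, the relative of Barx1 known from muscle and epithelia, was 2.88 higher in LLS than in LMA, unlike Barx1 itself (0.59). It was also 3.48 higher in T than in LMA, where Barx1 was lower. Lhx2, a LIM homeobox relative, was -3.21 in LLS minus MMA and -2.16 in LMA minus MMA, while the LIM-binding cofactor gene Ldb1 stayed within 0.46 of 0 in all 6 comparisons on its brightest probe and within 0.68 on its other one.

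Among the FGF genes, Fgf8, the oral epithelial ligand, was -4.48 in LLS minus MMA, -4.14 in LMA minus MMA and -5.06 in T minus MMA. These are the comparisons in which Lhx8 gave 0.71, -0.80 and -0.77 and Barx1 -0.28, -0.87 and -2.77. Etv4, a transcription factor gene that FGF signals turn on, was 2.19 and 1.79 higher in LLS and LMA than in MMA. Fgf9, another epithelial ligand, was 2.68 and 2.33 higher. Of the 10 list genes, 2 were at least 2-fold higher and 1 lower (Fgf8) in LLS minus MMA. For LMA minus MMA, 2 were higher and 2 lower (Fgf8 and the feedback gene Dusp6), with a median of -0.36. In LLS minus LMA, 1 of 9 FGF list genes was at least 2-fold higher (Spry1, an FGF feedback inhibitor, 1.13) and 0 lower.

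Among the BMP genes, 0 of 9 were at least 2-fold higher and 2 lower in LLS minus LMA. These were Msx1 (-3.06) and Msx2 (-3.46), homeobox genes read out from BMP signals, and Bmp4 itself gave -0.97. In T minus MMA, 1 of 9 was higher and 6 were lower, with a median of -1.51. Msx1 was -5.38 in T minus LMA, and Id1 -2.26 in T minus MMA.

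In the endothelin list, Edn1 is the ligand that acts upstream of Gsc in the mouse arch. Edn1 was -2.96 in LLS minus MMA and -4.14 in LMA minus MMA. Ednra, its receptor in the mesenchyme, was 1.39 and 1.84 higher in the same tissues, in which Gsc was higher by over 5. The distal genes Hand1 and Hand2, basic helix-loop-helix factors of the arch tip, were 1.5 and 1.18 higher in LMA than in MMA. Of the 9 list genes, 3 were at least 2-fold higher there and 5 lower (Edn1, Dlx3, Dlx4, Dlx5 and Dlx6), with a median of -1.08. For LLS minus MMA, 1 was higher (Ednra) and 4 lower (Edn1, Dlx4, Dlx5 and Dlx6). Dlx5, a homeobox gene of the lower-jaw programme, was -1.86 in LLS minus LMA and at least 3.97 lower in T than in LMA. In T minus LMA, 5 of 9 were lower and 2 higher (Ece1 and Dlx4), although another Ece1 probe gave -0.07.

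**Figure D4:**
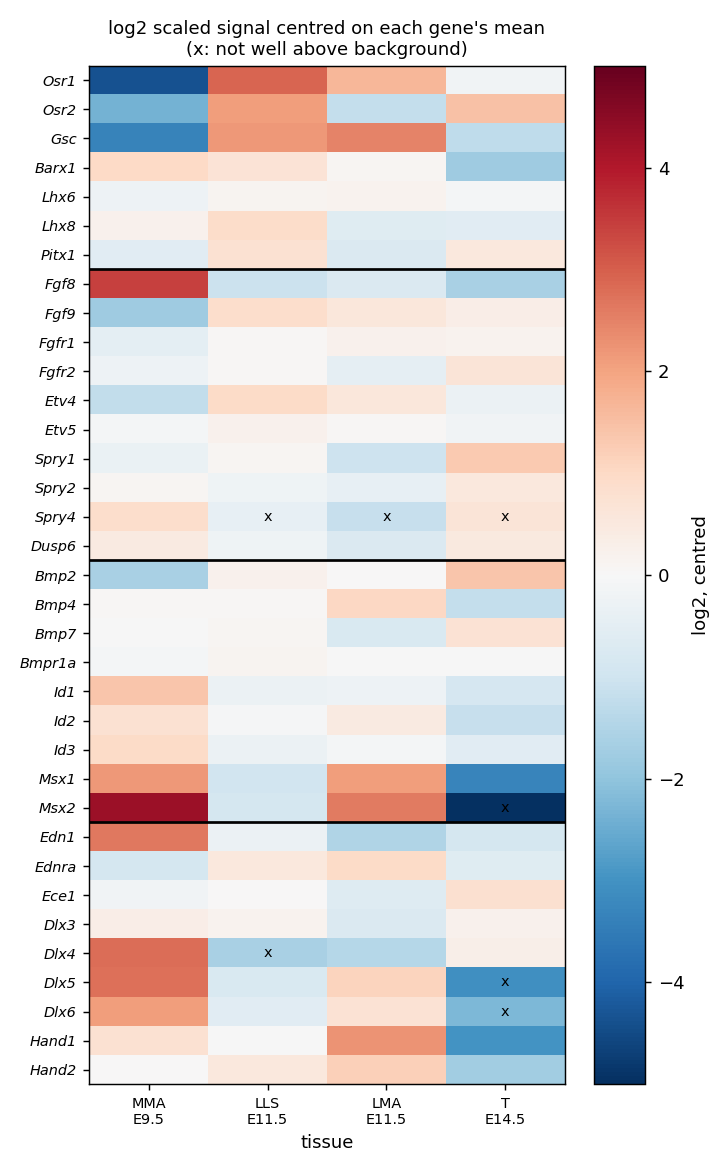
Log2 scaled signal of the 7 genes (top block) and of the FGF, BMP and endothelin lists (the next blocks, in that order), centred on each gene's mean over MMA, LLS, LMA and T. Red is above and blue below the mean, the colour scale ends at 5, and x marks spots not well above background, drawn at their own signal. Fgf8 and Edn1 are highest in MMA, where Osr1 and Gsc are lowest.

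Among 23 partners of the jaw and oral mesenchyme, 9 were at least 2-fold higher and 6 lower in LLS minus LMA, with a median of 0.70. The forkhead genes Foxd1 (3.28), Foxf2 (2.56), Foxf1 (2.40) and Foxd2 (1.60) and the paired-box gene Pax9 (2.76), known from the palate and teeth, were higher in LLS, as Osr2 was. Lower in LLS were the aristaless-related gene Alx4 (-1.5) and the paired-related genes Prrx1 (-1.77) and Prrx2 (-1.42), known from limb and facial mesenchyme. In LLS minus MMA, 14 of 22 were higher and 4 lower (median 1.87), and in T minus LLS 2 were higher and 11 lower (median -1.38).

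For each member the nearest patterns among 12981 named genes well above background in the same tissues were sought. Osr2 lay closest to Cldn1, a tight-junction gene, at 0.342, then Meox2 at 0.501. Barx1 lay closest to Spaca9 at 0.107, Pitx1 to Serpinb9 at 0.067 and Gli1, a Hedgehog target gene, at 0.081, and Lhx8 to Hgf, a growth factor gene, at 0.139. Gsc was nearest to Sned1 at 0.579, and a further near one was Pcp2, one of the cerebellar markers above, at 0.921, which had signals of 46.7, 583.5, 1560.1 and 43.2 in MMA, LLS, LMA and T. Osr1 had no close match, the nearest being Scrn1 at 0.958. Lhx6 had Notch2 at 0.01, among many genes that vary as little. With 4 tissues and 1 array each, nothing of shared function is read from these distances.

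**Figure D5:**
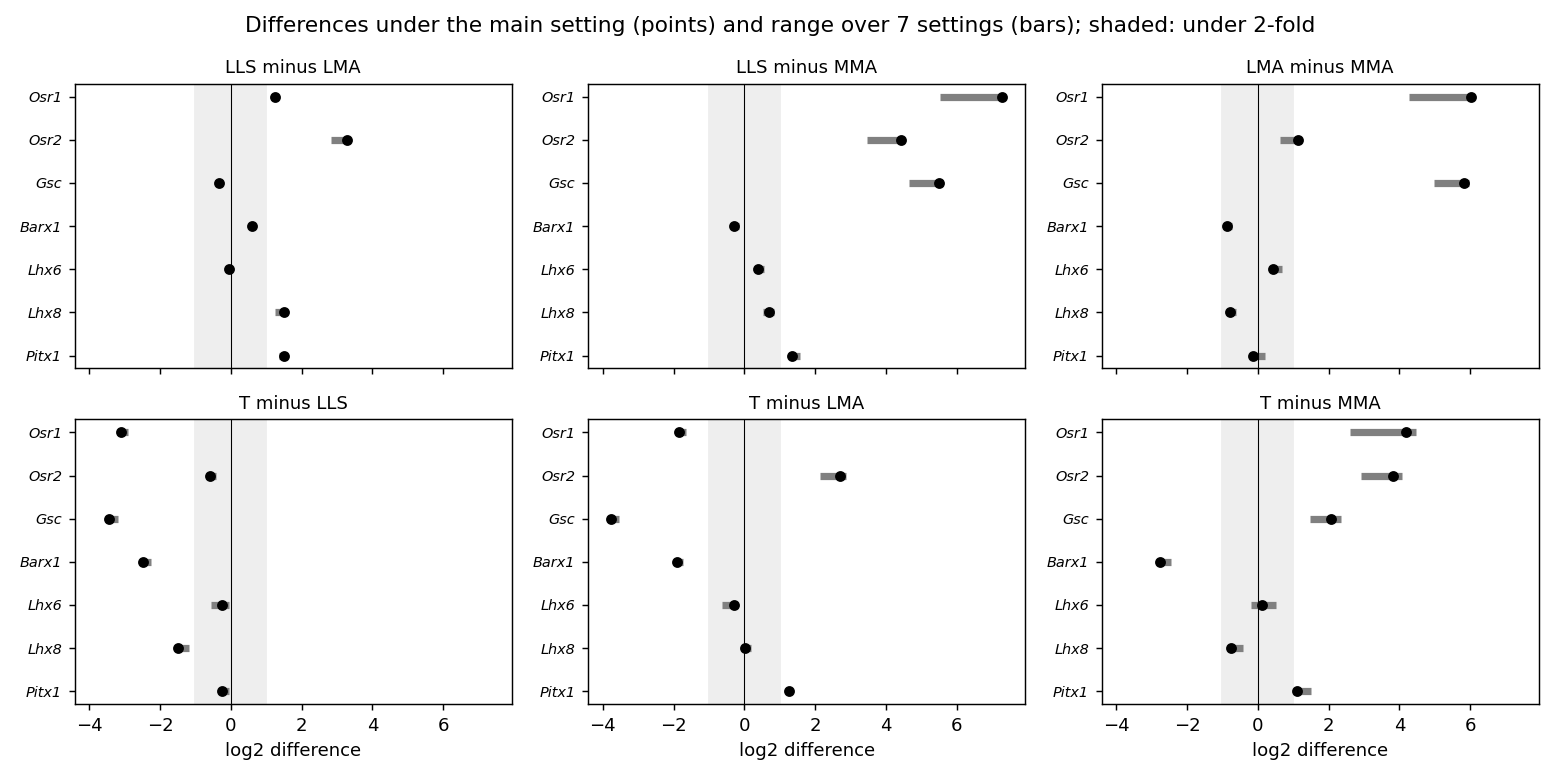
Log2 difference of each gene in the 6 comparisons, with the main value as a point and the span over 7 settings (the main one and 6 alternatives) as a bar, and differences under 2-fold shaded. The bar of Osr1 in LLS minus MMA runs from 5.52 to 7.37 and that of Osr2 in LMA minus MMA from 0.63 to 1.19, across the 2-fold limit, and no difference of at least 2-fold changes sign.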

How the data were processed

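The authors hybridised Cy3-labelled RNA of 4 pooled tissues to 4 arrays, 1 per tissue. The processed intensities of the scanner files were made with Agilent Feature Extraction 10.7.1.1 per the file headers (9.5.1.1 in the submitters' processing notes). They were background-subtracted and not scaled between arrays. The deposited value table holds 52145 probes as intensity normalized by the authors, on a linear scale, and lacks 4460 of the probes that were scanned. Its member differences lay close to those of quantile scaling (Osr1 in LLS minus LMA was 1.23 by both). It is thus not an alternative independent of quantile scaling. Positions are mm9 per the file headers. No annotation of that build was used, so exon and UTR status is not given.

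Control spots and outlier spots were left out. Probes were named by accession (32990), by the file's symbol (12264) or by an older symbol (520), and 10827 had none. From the processed intensity of the scanner files, log2 minus the array's 75th percentile was taken. A value not well above background was raised to the lowest well-above-background signal of its array, and its difference is a bound. Genes were compared where at least 1 tissue was above background. Alternatives were normexp (offset 50, limma 3.58.1, R 4.3.3), quantile and cyclic loess scaling, the deposited table, no floor, the mean of all probes, and a 4-fold limit. The counting was tested on simulated data. Tables were made with Python 3.11.15 and pandas 2.3.3.

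The members and lists were chosen with earlier results of these data known. Named are the members, list genes and, for each member, up to 3 genes of nearest pattern. Itgam, Oprm1 and the class of CA-run probes were chosen after their values were seen. Results for some list genes are not reported here.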

Additional observations from a re-analysis of the deposited data

Results flagged for a closer look

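Lhx8 differed in opposite directions from MMA in the E11.5 tissues, by 0.71 in LLS minus MMA and by -0.80 in LMA minus MMA. Its other probe gave 0.33 and -0.68. The pairs share the MMA array, and the difference between them was not tested.

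Osr2 differed in opposite directions between T and the E11.5 tissues, by -0.59 in T minus LLS and by 2.69 in T minus LMA. Its other probe gave -0.79 and 1.57. The pairs share the T array, and the difference between them was not tested.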

How the results depend on the processing

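Of 252 member differences recomputed under 6 alternatives, 209 stayed within 1 Feature Extraction error, 43 moved by more and 0 differences of at least 2-fold changed sign. Normexp moved 15 of its 42, cyclic loess 11, the mean of all probes 9, the deposited values and quantile scaling 4 each, and the absence of a floor 0. The Osr2 difference in LMA minus MMA was under 2-fold with normexp (0.63), the mean of probes (0.99), quantile scaling and the deposited table (both just under 1), which left 2 genes higher there in place of 3. The mean of all Osr2 probes gave 3.80 in LLS minus MMA and 3.12 in T minus MMA. Pitx1 in LMA minus MMA, under 2-fold throughout, went to 0.21 at its highest, against -0.15.

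Of 84 counts of members, 3 moved by more than 1.5 times, all at the 4-fold limit. These were 1 gene higher in LLS minus LMA in place of 4, 1 higher in T minus LMA in place of 2, and 1 lower there in place of 3. The list counts were recomputed in the same way after the data were seen. The 4-fold limit left 6 higher and 3 lower of 15 and 14 in LLS minus LMA, 13 and 10 of 23 and 16 in LLS minus MMA, and 8 and 7 of 18 and 18 in LMA minus MMA. It left 2 and 15 of 8 and 23 in T minus LLS, 5 and 12 of 14 and 22 in T minus LMA, and 15 lower of 24 in T minus MMA. Normexp left 5 higher of 8 in T minus LLS. No list gene at least 2-fold different changed sign under the alternatives.

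Counts over all genes depend on dim probes and on the limit, and are given as higher and lower. In LLS minus LMA they were 638 and 494, with 364 and 204 under normexp, 1475 and 1799 with no floor, 807 lower by the mean of probes, and 189 and 74 at 4-fold. In LLS minus MMA they were 1640 and 941, with 975 and 551 under normexp, 2804 and 2027 with no floor, and 547 and 150 at 4-fold. In LMA minus MMA they were 1834 and 1260, with 1113 and 758, 3290 and 2236, and 624 and 262 in the same settings. In T minus LLS they were 2238 and 1053, with 1439 and 601, 3497 and 1988, and 987 and 189. In T minus LMA they were 2556 and 1301, with 805 lower under normexp, 2558 lower with no floor, and 1219 and 257 at 4-fold. In T minus MMA they were 3181 and 2402, with 3885 and 1421 under cyclic loess and 1573 and 378 at 4-fold. Cyclic loess put the median of all genes in T minus MMA at 0.18 in place of -0.10, and elsewhere moved it by less.

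No paired analysis was possible because each tissue has 1 array. Signals near background, as Osr1 in MMA and the second probes of Osr2 and Lhx6, limit the size of their differences.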
